A study of Mus musculus with 15 samples.

Results

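Ephrins and Eph receptors were followed in the distal jejunum of mice of wild-type mice and of mice that lack 2 Aster proteins. The 9 genes described here, of 26844 in the deposited table, were taken by symbol: the ligand genes Efna1, Efna2, Efnb1 and Efnb2 and the receptor genes Epha1, Epha2, Ephb2, Ephb3 and Ephb4. They were selected on values measured in these same libraries, the normalised counts of the 4 genotype and diet groups, and which of the group differences led to the choice is not recorded, so their levels, fold changes and calls are given as a description that supports nothing further. All mice were male C57BL/6, aged 13 to 15 weeks, and all ate a low cholesterol diet with 0.08% cholesterol. Wild-type (WT) mice and global knockouts of both Aster-B and Aster-C (KO) received this diet alone (control diet) or with 0.01% ezetimibe, an inhibitor of cholesterol uptake through NPC1L1. Asters move sterol that has entered the plasma membrane on to the endoplasmic reticulum. The loss is not limited to the intestine, and the libraries are of whole frozen tissue, so each value is a mixture of epithelium, immune cells, vessels and stroma. WT gave 4 libraries per diet, and KO gave 3 without and 4 with ezetimibe.

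Eph receptors are receptor tyrosine kinases whose ligands, the ephrins, are themselves held on the surface of neighbouring cells, so that signalling needs contact and can run into both cells. Ephrin-A ligands are anchored in the membrane by a lipid and mostly bind EphA receptors, while ephrin-B ligands span the membrane and mostly bind EphB receptors. In the intestinal epithelium, EphB2 and EphB3 are made by stem, progenitor and Paneth cells at the crypt base under Wnt control, and ephrin-B1 and ephrin-B2 by the differentiated cells above. Repulsion between the opposing gradients sorts cells along the crypt and villus axis and keeps Paneth cells at the base. EphB4 and ephrin-B2 also mark veins and arteries.

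Values are DESeq2-normalised counts, in which each library's reads are divided by its size factor. The reads recovered from them summed to between 13855034 and 19307079 per library. Differences were tested with limma on log2(value + 1) across the 14299 genes that reached a value of 10 in 3 or more libraries, and a gene was called when its adjusted p over all these genes was under 0.05. Of the 9 genes, 8 passed this filter, and Efna2 did not. Both targeted genes were lower in every KO library than in every WT library. Gramd1c, which encodes Aster-C, ranged from 1059 to 1845 in the 8 WT libraries and from 71.8 to 194 in the 7 KO libraries. Gramd1b, which encodes Aster-B, ranged from 2274 to 4046 in WT. In KO it was at 962 to 1247 on the control diet and at 1744 to 2086 on ezetimibe, so much of its transcript remained. Across genes, replicates correlated at r of 0.966 to 0.987 on the log2 scale, and none matched another within sampling noise. Regional marker lists were small, with 2 ileum and 5 jejunum genes, and 0 were called by limma in either genotype comparison. At an unadjusted limma p under 0.05, 0 ileum genes passed on the control diet and 2 on ezetimibe, both higher in KO. For jejunum genes it was 1 on each diet, also higher, and the authors' deposited tables listed 1, for the control diet. The summed level of ileum genes was 1168 to 1495 in WT and 1781 to 2302 in KO on the control diet, with no overlap, and 943 to 1463 and 1283 to 5346 on ezetimibe, with KO ezetimibe replicate 3 highest by far. The summed level of jejunum genes was 85807 to 110413 in WT and 103310.1 to 131750.4 in KO on the control diet, and 87358 to 97340.2 and 106718 to 126558 on ezetimibe. The part of the region sampled in the genotype differences was not tested. WT control replicate 4 had the highest summed level of Paneth, stem and proliferation markers of all 15 libraries and the lowest of enterocyte markers.

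To compare genes, counts were divided by the merged exon length in kilobases. On this per-kilobase scale, the A-type receptors and Efna1 and Efnb1 were the most abundant members in WT mice on the control diet. The mean level was 616 ± 159.8 (SD, n = 4) for Epha2, 509.8 ± 87.5 for Epha1, 371 ± 69.5 for Efna1, 318 ± 21.1 for Efnb1 and 157 ± 29.8 for Efnb2. The B receptors were far less abundant, at 37.4 per kilobase for Ephb4, 15.9 for Ephb2 and 6.34 for Ephb3, and Efna2 was at 2.03. From Epha2 down to Efnb1, each gene's mean ± SD overlapped that of its neighbour in this order. In KO mice on ezetimibe Efna1 had the highest mean per kilobase of the 9, at 726 ± 52.6 (SD, n = 4), ahead of Epha1 at 532, Epha2 at 508 and Efnb1 at 423.

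**Figure D1:**
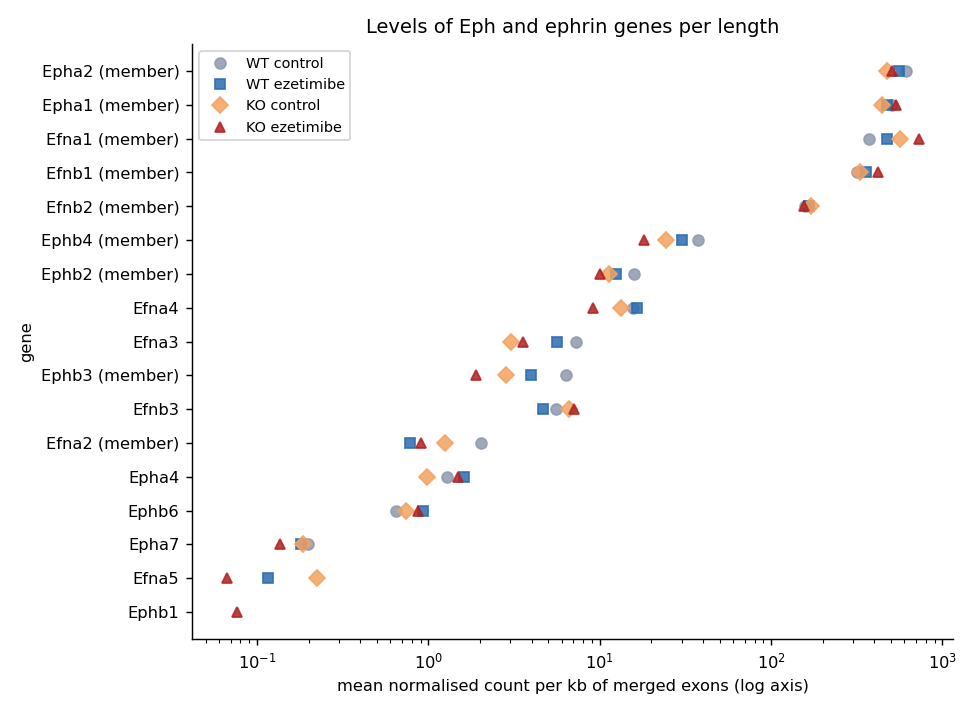
Mean level of each Eph and ephrin gene in the table, in normalised counts per kilobase of merged exon on a log axis, for the 4 genotype and diet groups, with a marker per group mean over 3 or 4 libraries. Efna1 stands at 371 in WT and 566 in KO on the control diet and at 474 and 726 on ezetimibe, while Ephb3 stands at 6.34, 2.84, 3.95 and 1.90 in the same order.

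Efna1 (ENSMUSG00000027954; GRCm38, the assembly also called mm10, chr3:89271733-89281142, minus strand) encodes ephrin-A1, a ligand of EphA2 and other A-type receptors. In WT mice on the control diet its normalised counts were 863, 579, 657 and 614, and in KO mice on that diet 1019, 1013 and 1077. On ezetimibe they were 961, 833, 805 and 870.0 in WT and 1453, 1238, 1270.3 and 1356 in KO. Every KO library lay above every WT library of the same diet, and every KO library on ezetimibe above every KO library on the control diet, whereas the WT libraries of the 2 diets overlapped through WT control replicate 1.

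The order of the 4 groups by Efna1 level was WT control (679 ± 127, SD, n = 4), WT ezetimibe (867 ± 68.0, n = 4), KO control (1036 ± 35.4, n = 3) and KO ezetimibe (1329 ± 96.3, n = 4). On the control diet Efna1 rose in KO by 0.63 ± 0.119 (SE) on the log2 scale, with a limma adjusted p of 0.047. It was 1 of 8 tested members called, in a comparison where 53 of 14299 genes (0.371%) were called, 21 of them higher (0.147%), and 6.59% of genes had every KO library above every WT library. This call was close to the threshold. It passed in 1 of 7 fits that each left out a library, the fit without WT control replicate 1 (adjusted p = 0.00585), and leaving out any of the other 6 gave an adjusted p between 0.0536 and 0.241, with fold changes over the 7 fits of 0.56 to 0.75. edgeR on the recovered reads gave 0.0519 and the fit to the 2 groups alone 0.244.

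On ezetimibe the Efna1 difference between KO and WT was 0.62 ± 0.110 on the log2 scale (limma adjusted p = 0.171), while DESeq2 on the recovered reads gave an adjusted p of 0.000638. In that comparison 1 gene of 14299 (0.00699%) was called, which was no member, and 5.09% of genes had all KO libraries above all WT libraries. The 2 genotype differences share no library, and the test of their difference, the genotype by ezetimibe interaction, gave -0.01 ± 0.162 (adjusted p = 0.989), with 0 of 14299 genes called by limma (0%), 1004 at an unadjusted p under 0.05 and 5 called by DESeq2. The authors' deposited table for the control diet listed Efna1 at a log2 fold change of 0.61 ± 0.130 (adjusted p = 0.000938), and their table for ezetimibe at 0.62 ± 0.119 (adjusted p = 0.000705). No other member was in either of the authors' deposited tables.

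**Figure D2:**
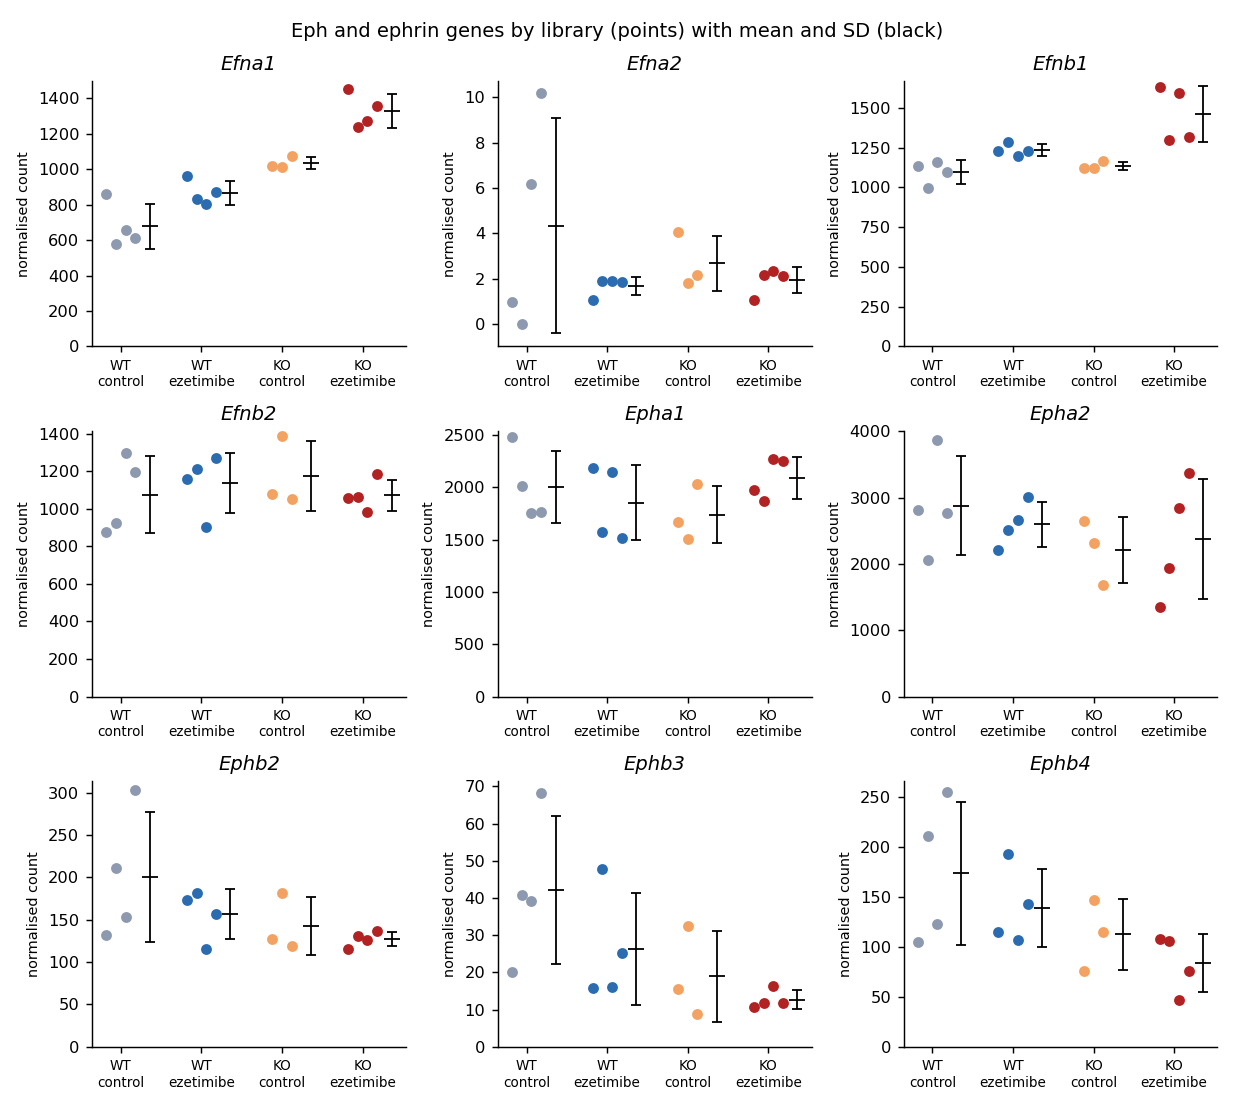
Normalised counts of the 9 genes in each of the 15 libraries, 1 panel per gene, with the 4 groups side by side, a point per library and a bar at the group mean with its SD. The KO points of Efna1 lie above the WT points on both diets, and the points of Ephb2, Ephb3 and Ephb4 spread most widely in WT mice on the control diet.

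Ezetimibe added to the diet went with a similar Efna1 step in each genotype that was not called. In WT it was 0.37 ± 0.110 on the log2 scale (limma adjusted p = 0.424), where 31 genes (0.217%) were called. In KO it was 0.36 ± 0.119 (adjusted p = 0.101), where 104 genes (0.727%) were called and 8.64% of genes had all ezetimibe libraries above all control libraries. DESeq2 gave the KO step an adjusted p of 0.0472. No member was called by limma in either diet comparison. Left out in turn, WT control replicate 1 alone brought the WT step past the threshold, at an adjusted p of 0.0399.

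RefSeq (GRCm38.p6) gives Efna1 2 start sites, and most of the 250 bases before the outer one is exon in GENCODE M21. The bases before the inner start are therefore shown for the member that was called, together with those of Efnb1. Efnb1 was higher in every ezetimibe library than in every control library of the same genotype. Of all tested genes, 2.26% were so in WT and 8.64% in KO. The bases of Ephb3, the member with the lowest fold change in KO, and Epha2, the single member with a TCF/LEF match, follow. Capitals mark matches to the GC box GGGCGG and to the TCF/LEF word CTTTGAA, its variant CTTTGAT, the variant CTTTGTA or the further variant CTTTGTT, on either strand, and the sequences run 5′ to 3′ on the strand of the gene.
Efna1, inner start, chr3:89279646-89279895, minus strand: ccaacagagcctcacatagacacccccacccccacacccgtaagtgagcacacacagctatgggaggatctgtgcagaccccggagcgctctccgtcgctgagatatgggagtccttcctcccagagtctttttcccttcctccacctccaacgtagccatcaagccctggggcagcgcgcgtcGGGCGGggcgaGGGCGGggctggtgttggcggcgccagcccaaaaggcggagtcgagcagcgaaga
Efnb1, chrX:99135811-99136060, plus strand: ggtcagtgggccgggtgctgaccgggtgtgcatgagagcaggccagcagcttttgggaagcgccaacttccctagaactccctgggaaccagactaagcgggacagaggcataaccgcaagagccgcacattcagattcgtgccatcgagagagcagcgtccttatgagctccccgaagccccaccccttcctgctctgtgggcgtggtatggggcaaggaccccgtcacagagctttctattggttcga
Ephb3, chr16:21204545-21204754, plus strand: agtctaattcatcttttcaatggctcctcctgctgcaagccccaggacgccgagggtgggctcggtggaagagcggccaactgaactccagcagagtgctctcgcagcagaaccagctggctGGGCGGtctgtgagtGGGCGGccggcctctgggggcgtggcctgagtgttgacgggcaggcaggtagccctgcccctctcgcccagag
Epha2, chr4:141300971-141301220, plus strand: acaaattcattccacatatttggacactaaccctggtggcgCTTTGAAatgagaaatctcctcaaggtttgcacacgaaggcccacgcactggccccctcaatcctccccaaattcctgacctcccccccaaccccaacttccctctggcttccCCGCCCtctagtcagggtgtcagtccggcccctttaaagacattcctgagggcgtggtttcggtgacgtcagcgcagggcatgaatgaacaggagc

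Both motifs were searched on either strand over the 250 bases before each start. A TCF/LEF word, bound by the Wnt effectors, was in 1 of the 9 genes, Epha2, where it begins 209 bases before the start, and in 14.8% of all 32851 mouse windows. A GC box, bound by Sp-family factors, was in 7 of the 9, all but Ephb2 and Efnb1, and in 32.7% of all windows. The motifs do not overlap in the windows shown, and these matches describe letters in short windows and nothing else.

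Efna2, encoding ephrin-A2, was near the limit of detection. Its normalised counts were 0.955, 0, 6.18 and 10.2 in WT on the control diet, from 1, 0, 6 and 10 reads, and 4.06, 1.81 and 2.17 in KO, from 5, 2 and 2 reads. On ezetimibe it was 1.06, 1.88, 1.89 and 1.86 in WT and 1.07, 2.14, 2.34 and 2.13 in KO, from 1 or 2 reads in each of the 8 libraries. A difference in Efna2 was not detectable at this depth, and the gene was not tested.

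Efnb1 (ENSMUSG00000031217; chrX:99136130-99148991) encodes ephrin-B1, the ligand of the upper crypt and villus that meets EphB2 and EphB3 at the crypt boundary. Its normalised counts were 1133, 994, 1160.1 and 1099 in WT and 1121, 1120.2 and 1167 in KO on the control diet. On ezetimibe they were 1229, 1286, 1196 and 1228 in WT and 1633, 1297, 1590.2 and 1318 in KO. The genotypes overlapped on the control diet, every ezetimibe library lay above every control library of its genotype, and every KO library on ezetimibe lay above every WT library on ezetimibe. Of all tested genes, 2.26% were separated in this way by ezetimibe in WT, 8.64% by ezetimibe in KO and 5.09% by genotype on ezetimibe.

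The Efnb1 difference between KO and WT was 0.05 ± 0.0938 on the log2 scale on the control diet (limma adjusted p = 0.852) and 0.23 ± 0.0868 on ezetimibe (adjusted p = 0.248). The interaction was 0.18 ± 0.128 (adjusted p = 0.721), so a difference between the diets was not shown. Ezetimibe against control diet gave 0.17 ± 0.0868 in WT (adjusted p = 0.998), where 2.26% of genes had all ezetimibe libraries above all control libraries, and 0.35 ± 0.0938 in KO (adjusted p = 0.0614). The KO value did not pass, but did without KO ezetimibe replicate 4 (adjusted p = 0.0434). DESeq2 on the recovered reads gave it an adjusted p of 0.00831.

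Efnb2, encoding ephrin-B2, a ligand of villus cells that is also made by arteries, did not separate the groups. It was 879, 924, 1296 and 1197 in WT and 1081, 1387 and 1054 in KO on the control diet, and 1161, 1214, 904 and 1269 in WT and 1057, 1060.3, 983 and 1184 in KO on ezetimibe. All 4 groups overlapped, and the differences between KO and WT were 0.14 ± 0.151 on the log2 scale on the control diet and -0.08 ± 0.140 on ezetimibe (limma adjusted p = 0.73 and 0.795).

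**Figure D3:**
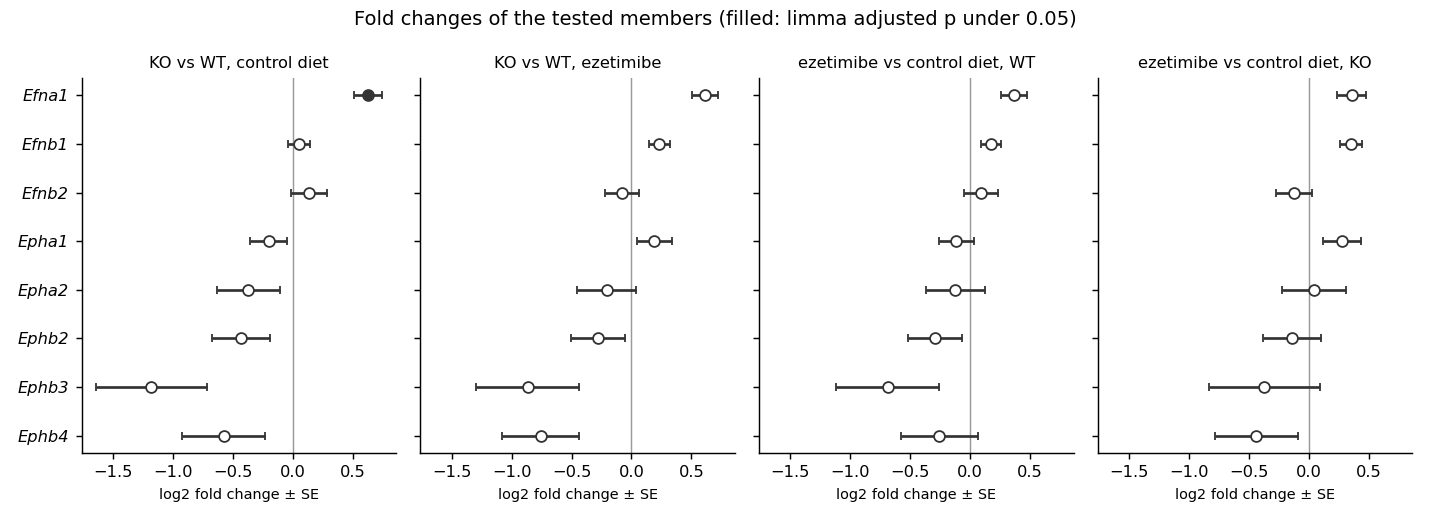
Log2 fold changes of the 8 tested members with their standard errors, for KO against WT on each diet and for ezetimibe against control diet in each genotype. Efna1 lies at 0.63 and 0.62 in the genotype comparisons, and Ephb3, at -1.18 and -0.87, has the longest error bars.

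The A-type receptors were abundant, and no difference between groups was called for either. Epha1 was 2485, 2013, 1751 and 1761 in WT and 1673, 1501 and 2034 in KO on the control diet, and 2179.6, 1569, 2148 and 1515 in WT and 1974, 1872, 2265 and 2253 in KO on ezetimibe. Its genotype difference was -0.20 ± 0.158 on the control diet and 0.19 ± 0.146 on ezetimibe, and the interaction of 0.39 ± 0.215 had an unadjusted p of 0.0875 and an adjusted p of 0.696. The genotype difference was -0.09 without WT control replicate 1 and, on ezetimibe, 0.10 without WT ezetimibe replicate 4. Epha1 shares 236 exon bases with Zyx on the opposite strand, a gene at a mean of 3476 in WT on the control diet, and since the strand of counting is not stated, reads of the 2 genes may not be separable there.

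Epha2, a main receptor of ephrin-A1 in epithelia, was 2819.8, 2066, 3877 and 2762 in WT and 2648, 2314 and 1678 in KO on the control diet. On ezetimibe it was 2204, 2510.1, 2665 and 3015 in WT and 1354, 1933, 2839.5 and 3367 in KO, where the highest KO library held more than any WT library of that diet and the lowest KO library less than any. The genotype differences were -0.37 ± 0.266 on the control diet and -0.21 ± 0.246 on ezetimibe (limma adjusted p = 0.563 and 0.668), with overlapping groups. They were -0.18 without KO control replicate 3 and 0.03 without KO ezetimibe replicate 1.

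The crypt receptors Ephb2 and Ephb3 and the receptor Ephb4 had lower means in KO than in WT on both diets, and none of the 6 differences was called. Which cells of the tissue made Ephb4 was not tested. Ephb2 was 132, 211, 154 and 304 in WT and 127, 182 and 119 in KO on the control diet, and 173, 181, 115 and 157 in WT and 116, 131, 126 and 136 in KO on ezetimibe. The difference was -0.43 ± 0.243 and -0.28 ± 0.225 on the log2 scale (limma adjusted p = 0.432 and 0.515). The groups overlapped, and without WT control replicate 4, the highest of all 15 libraries, the control diet difference was -0.21.

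Ephb3, which holds Paneth cells at the crypt base, was 20.1, 40.9, 39.1 and 68.3 in WT and 15.4, 32.6 and 8.66 in KO on the control diet. On ezetimibe it was 15.8, 47.9, 16.0 and 25.1 in WT and 10.7, 11.8, 16.3 and 11.7 in KO. These values rest on 8 to 67 reads per library. The difference was -1.18 ± 0.463 on the control diet (limma unadjusted p = 0.0219, adjusted p = 0.244), in a comparison where 14.7% of genes had an unadjusted p under 0.05. It ranged from -1.65 without KO control replicate 2 to -0.75 without KO control replicate 3. On ezetimibe it was -0.87 ± 0.429 (adjusted p = 0.319), or -0.54 without WT ezetimibe replicate 2, and the groups overlapped on both diets.

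Ephb4 was 105, 212, 123 and 256 in WT and 75.5, 147 and 115 in KO on the control diet, and 115, 193, 107 and 143 in WT and 108, 106, 46.7 and 75.6 in KO on ezetimibe. The difference was -0.58 ± 0.348 and -0.76 ± 0.322 (limma adjusted p = 0.468 and 0.283). On the control diet it was -0.32 without KO control replicate 1 and -0.36 without WT control replicate 4, and on ezetimibe -0.50 without KO ezetimibe replicate 3. Ephb4 shares 33 exon bases with Zan on the opposite strand, whose mean was 37.1 in WT against 10.1 in KO without the drug, or 29.2 against 16.4 with it, and reads of the 2 genes may not be separable there. Ezetimibe against control diet gave differences of -0.14 to -0.69 on the log2 scale for the 3 receptors over both genotypes, none called. Without KO control replicate 2 the KO values of Ephb2 and Ephb3 turned to 0.04 and 0.10, and without WT control replicate 4 the WT value of Ephb4 went from -0.26 to -0.04.

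Crypt cell markers, like the B receptors, had lower means in KO. The summed normalised counts of 8 Paneth cell genes ran from 21378 to 72283 in WT and from 11487 to 19134 in KO on the control diet, and from 10169 to 42478 and from 9398 to 16451 on ezetimibe. All 8 Paneth genes had lower means in KO on the control diet and all 8 an unadjusted p under 0.05 but 0 were called by limma (median -1.62 on the log2 scale, against -0.01 over all tested genes), with Ang4, a Paneth cell antimicrobial, at -1.58 ± 0.398. The authors' deposited table for that diet listed 5 of the 8 as lower, Ang4 among them (adjusted p = 0.0193). On ezetimibe 0 of the 8 had an unadjusted p under 0.05 in limma, the authors' deposited table listed 0, and the median was -0.63. In bulk tissue, fewer cells of a type and less RNA per cell cannot be told apart, and the part of these markers in the B receptor values was not tested.

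The other crypt lists lay the same way on the control diet. Of 14 proliferation genes 2 were called lower by limma, against 0.224% of all tested genes. They were Mki67 (-1.50 ± 0.288, limma adjusted p = 0.047) and Bub1 (-1.91 ± 0.378, adjusted p = 0.047), both mitotic genes. At an unadjusted p under 0.05, 11 of the 14 were lower, against 7.86% of all tested genes. A negative fold change was found for 13, and the median was -1.23. The authors' deposited table listed 8 of the 14 as lower, Mki67 and Bub1 included. The summed proliferation level was 3076 to 6056 in WT and 2195 to 3336 in KO. Of 9 stem cell genes 0 were called, and 2 were lower at an unadjusted p under 0.05, against the same 7.86%. Their median was -0.61, with sums of 1758 to 4747 in WT and 1180.0 to 2330.0 in KO. On ezetimibe 0 genes of either list were called by limma or listed in the authors' deposited table. Of them, 7 proliferation genes and 3 stem cell genes were lower at an unadjusted p under 0.05, where 8.3% of all tested genes were, and the medians were -0.68 and -0.53.

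Of 16 Wnt and crypt target genes, the group to which Ephb2 and Ephb3 belong, 13 were tested and 0 were called by limma in either genotype comparison. On the control diet 4 were lower in KO at an unadjusted p under 0.05, where 7.86% of all tested genes were, among them the cell cycle gene Ccnd1 (-1.03 ± 0.368) and the Wnt feedback gene Axin2 (-0.48 ± 0.185). On ezetimibe 6 were, against 8.3% of all tested genes, and 3 of these, Ascl2 (-1.51), Tnfrsf19 and Lrig1, are the same 3 genes counted in the stem cell list. The list was not uniform: 4 of the 13 were positive on ezetimibe, Axin2 stood at 0.03 there, and Sp5 was positive on both diets (0.21 and 0.42). The medians were -0.55 and -0.49, against -0.01 and -0.00 over all tested genes.

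Vessel markers, beside Ephb4 and Efnb2, overlapped between the genotypes on both diets. The summed level of 9 endothelial genes was 49.7 to 122 in WT and 66.1 to 89.3 in KO on the control diet, and 62.2 to 83.4 and 58.9 to 95.4 on ezetimibe, low in all libraries. The summed level of 5 arterial genes was 173 to 304 in WT and 242 to 269 in KO on the control diet, and 214 to 305 and 213 to 312 on ezetimibe. That sum is nearly all Dll4 (a mean of 227 in WT on the control diet), a Notch ligand also made by crypt secretory cells, while Gja4, Gja5, Sox17 and Hey1 were at 3.31, 2.36, 1.42 and 5.04, so it says little about arteries. The endothelial list had 4 tested genes and the arterial list 1, and 0 were called. The summed level of 12 enterocyte genes was set beside Efna1 and Efnb1. It was 783363 to 1110343 in WT and 1032064 to 1115072 in KO on the control diet, and 791878 to 969377 and 992830.3 to 1198912 on ezetimibe. On the control diet 8 of the 12 had a positive fold change and 4 a negative one (median 0.13). At an unadjusted limma p under 0.05, 2 were higher, against 6.87% of all tested genes. On ezetimibe all 12 were positive (median 0.29), against 49.7% of all tested genes. There 5 were higher at that unadjusted p, against 8.15%. Limma called 0 on either diet. Of the 12, the authors' deposited tables listed Fabp1 for the control diet (0.58) and the brush border phosphatase Alpi for ezetimibe (0.62). The summed level of 7 goblet cell genes was 135065 to 168478 in WT and 152189 to 171231 in KO on the control diet, and 134495 to 151013 and 164943 to 224509 on ezetimibe, where the genotypes did not overlap and the authors' deposited table listed Fcgbp (0.63). The part of these markers in the ligand values was not tested.

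**Figure D4:**
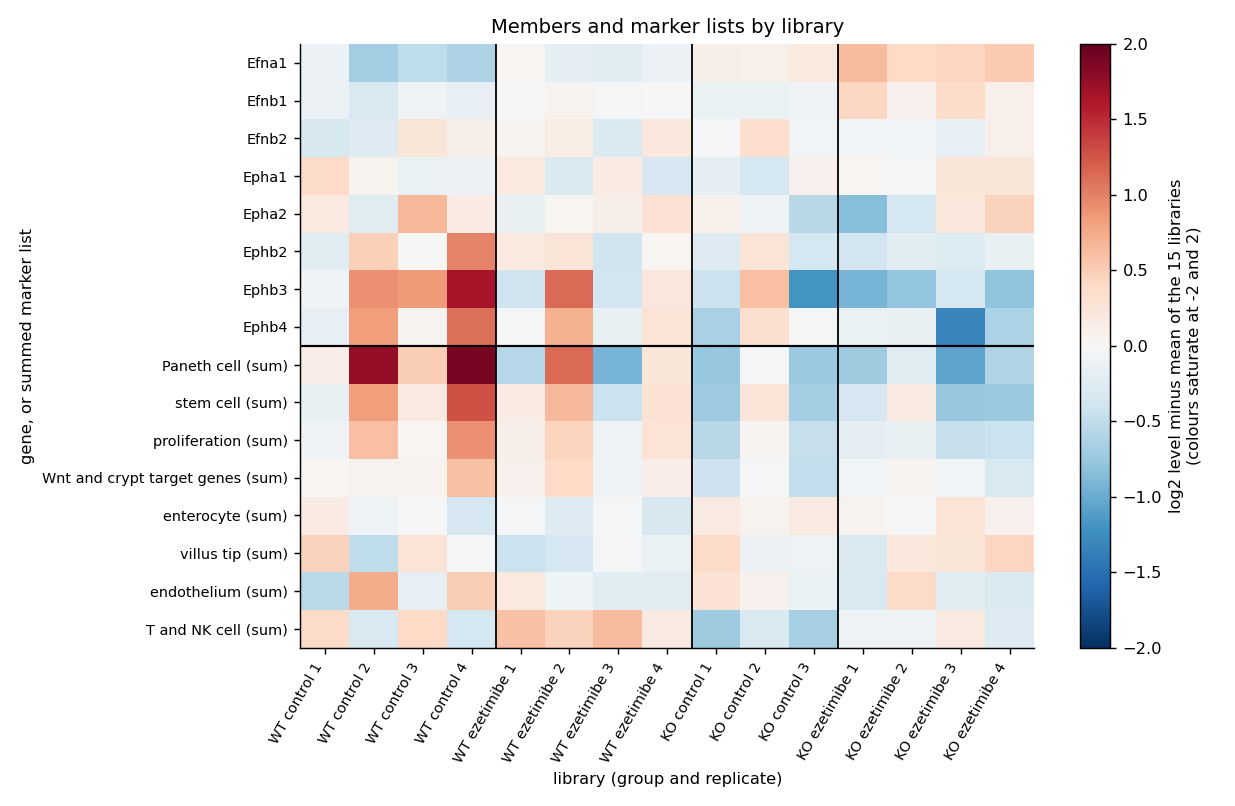
Log2 level of each tested member and of 8 summed marker lists (rows) in each of the 15 libraries (columns), as the difference from the row's mean over all libraries, in colours that saturate at -2 and 2. WT control replicate 4 is the highest library for Ephb2, Ephb3 and Ephb4, at 304, 68.3 and 256 normalised counts, and the KO ezetimibe libraries are the highest for Efna1, from 1238 to 1453.

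Within groups the B receptors were positively correlated with each other, at levels that did not pass after adjustment. After each group's mean was subtracted, Ephb2 and Ephb3 correlated over 15 libraries with r = 0.77 (permutation p = 0.0111, Benjamini-Hochberg adjusted 0.132 over 28 pairs of members) and rho = 0.68 (p = 0.0291, adjusted 0.163). Without the 2 libraries farthest from the median of Ephb2, r was 0.66. Ephb2 and Ephb4 gave r = 0.67 (permutation p = 0.0205, adjusted 0.143), rho = 0.71 (p = 0.0153, adjusted 0.143) and r = 0.50 without such libraries. Ephb3 and Ephb4 gave r = 0.51 (permutation p = 0.0801, adjusted 0.280), rho = 0.49 (p = 0.107, adjusted 0.333) and r = 0.34 without such libraries. Epha1 and Ephb3 ran in opposite directions, at r = -0.76 (permutation p = 0.0117, adjusted 0.132), rho = -0.79 (p = 0.0123, adjusted 0.143) and r = -0.67 without the farthest libraries. Efnb2 and Epha1 gave r = -0.72 (permutation p = 0.0141, adjusted 0.132). The ligand gene Efnb2 was positively correlated with Ephb3 (r = 0.61, permutation p = 0.0666, adjusted 0.266) and Ephb2 (r = 0.57, permutation p = 0.127, adjusted 0.301). None of the 28 pairs passed after adjustment, and 12 of the 28 had a positive r.

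The genes most like some members were taken from the same deviations, as a description over the 15 libraries. For Ephb2 they were Dph5 (r = 0.95), G3bp1 (r = 0.95) and Ncbp2 (r = 0.94), and for Ephb3 they included Snrnp70 and Hnrnpa3, each at r = 0.95. Efnb2 was most like Gdf15 (r = 0.95), Angptl8 (r = 0.94) and Pdhb (r = 0.90), and Efnb1 most like Pde4d (r = 0.86), Nup210l (r = 0.86) and Tmub2 (r = 0.83). The leading values were lower for Efnb1 than for the other 3. The libraries share tissue makeup and depth with every gene in them.

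Of 13 other Eph and ephrin genes 8 were in the table, and Epha3, Epha5, Epha6, Epha8 and Epha10 were not analysed here. The 4 that passed the filter were low, and 0 were called in any comparison by limma. The ephrin-A gene Efna3 was at 7.24 per kilobase in WT and 3.02 in KO on the control diet (-0.89 ± 0.515 on the log2 scale), and Efna4 at 15.6 and 13.3 (-0.10 ± 0.427). The ephrin-B gene Efnb3 was at 5.53 and 6.57 and the receptor Epha4 at 1.28 and 0.983. Every one of these means lay below those of Efna1, Efnb1 and Efnb2, but not below those of all members. In WT on the control diet Efna4 and Efna3 lay above Ephb3 (6.34), and Efna4 was near Ephb2 (15.9).

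Efna3 and Efna4 are also Efna1's neighbours, with starts 41.8 and 56.9 kb from its start. Within 100 kb of Efna1, a window set after values were seen, 14 other genes were tested and 0 were called in either genotype comparison. Of all tested genes, 0.371% and 0.00699% were called in them. On the control diet the fold changes of the 14 ran from -0.89 to 0.29 (median -0.08). On ezetimibe they ran from -0.79 to 0.35 (median -0.22). At an unadjusted limma p under 0.05 there were 1 and 3 of the 14, against 14.7% and 16.4% of all tested genes. Efna1, at 0.63 and 0.62, lay above the range of the 14 on both diets. It was the called member of a set chosen on these libraries, so its place above genes taken by position supports nothing.

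**Figure D5:**
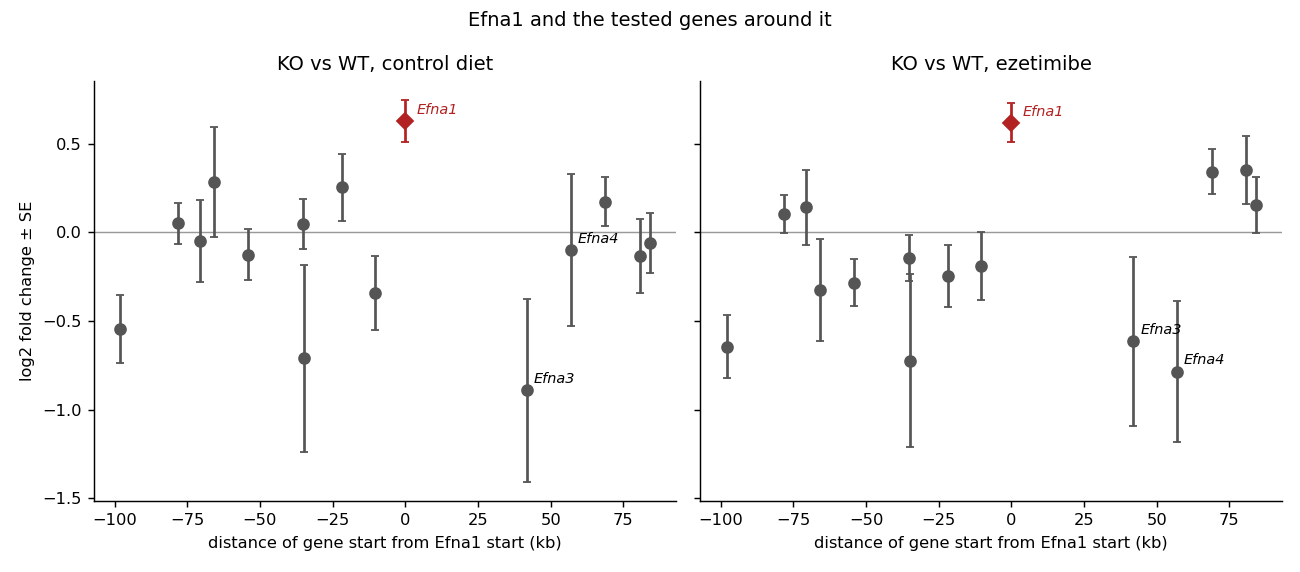
Log2 fold change of KO against WT for Efna1 and the 14 tested genes within 100 kb of it, by distance of their start from the Efna1 start in kilobases, on each diet with standard errors. Efna1 lies at 0.63 on the control diet and 0.62 on ezetimibe, above the highest neighbours at 0.29 and 0.35. Efna1 was taken with its values known, so its place above them supports nothing.

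Of 33 genes of Eph and ephrin signalling (adaptors, exchange factors, kinases, phosphatases and proteases that act with the receptors) 29 were tested. On the control diet 1 was called lower in KO by limma and 0 higher, against 0.224% and 0.147% of all tested genes. That gene, Tiam1, an exchange factor for Rac, was at a mean of 51.6 in WT and 15.5 in KO (-1.59 ± 0.286, limma adjusted p = 0.0424). Fyn, a Src-family kinase that acts with Eph receptors and is also abundant in T cells, was at 139.6 and 84.2 (-0.73 ± 0.212, adjusted p = 0.122), and the phosphatase Acp1 at 0.20 ± 0.077. The authors' deposited table for the control diet listed Tiam1 at -1.74 and Fyn at -0.73. The list's median was -0.02, against -0.01 over all tested genes.

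On ezetimibe 0 signalling genes were called by limma. At an unadjusted limma p under 0.05, 6 were higher and 1 lower in KO, against 8.15% and 8.3% of all tested genes. Fyn was at -0.66 ± 0.197, the endocytic adaptor Itsn2 at 0.33 ± 0.117 and the kinase Src at 0.32 ± 0.126, and the median was 0.11. Beside Fyn, T and NK cell markers summed to 4386 to 7342 in WT and 3399.7 to 4533 in KO on the control diet. On ezetimibe they summed to 6309 to 8680.4 and 4659 to 6363. All 8 markers had a negative fold change in KO on both diets, and limma called 0. On each diet 7 of the 8 were lower at an unadjusted limma p under 0.05, against 7.86% and 8.3% of all tested genes. The authors' deposited tables listed 3 as lower on the control diet and 1 on ezetimibe. The part of these markers in the Fyn values was not tested.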

How the data were processed

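Per the labels' protocols, total RNA was extracted from frozen distal jejunum with TRIzol and made into NEBNext Ultra II libraries. The submitters' processing notes name DESeq2, STAR 2.6.0c, FastQC and the mm10 build. The annotation, read counter and strand setting were not stated. Per the file headers, the deposited table holds normalised counts (a signal) made with DESeq2. In every library 100% of values were whole multiples of the value of 1 read (tolerance 0.001), so reads were recovered. The authors' 2 deposited tables of comparisons give log2 fold changes, a ratio (fold change), a score (Wald statistic) and p-values, per the file headers, and hold 424 and 72 genes.

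Differences were tested with limma 3.58.1 (trend) on log2(value + 1) over all 15 libraries and 4 group means, for genes reaching a value of 10 in 3 or more libraries, adjusted by Benjamini-Hochberg, in R 4.3.3. Fold changes on this scale understate those of low genes. Alternatives were edgeR 4.0.16 quasi-likelihood and DESeq2 1.42.0 on recovered reads, which called 12 and 452 genes in the control diet comparison of KO with WT, other pseudocounts, filters and scaling, the groups compared alone, the replicate block, and each library left out. On simulated data for that comparison (14108 genes), limma recovered 25.4% of genes changed 1.5-fold, 59.7% changed 2-fold and 83.3% changed 4-fold, with 5 false calls. Nothing in the labels says that each library is a separate mouse, so p-values reflect the spread among these samples, which may be technical.

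The members, the gene lists and the tests were chosen with earlier results of these data known. Besides members and other family genes, the genes named were the targeted genes, up to 3 genes per list with the smallest unadjusted p in a comparison, and the 3 most like Ephb2, Ephb3, Efnb1 and Efnb2, of which 1 is not reported here. Sp5, the arterial genes and the genes overlapping or near members were named after their values were seen. Of 26844 identifiers 26825 matched GENCODE M21. Promoter sequences are from RefSeq (GRCm38.p6), where all 9 members matched, cut where a GENCODE exon begins. Figures were drawn with matplotlib 3.10.9.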

Additional observations from a re-analysis of the deposited data

Results flagged for a closer look

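Each group of 4 libraries was checked for a library far from the others of its group, for each of the 9 genes. Of 27 such groups 2 stood out by Dixon's criterion (0.829 for 4 libraries), and chance gives about 1 in 20. Both concern Efna2. WT ezetimibe replicate 1 was the lowest of its group, at 1.056 against 1.857 to 1.887 in the others, and KO ezetimibe replicate 1 the lowest of its group, at 1.071 against 2.13 to 2.335. Each value is 1 read where the others are 2 reads, so the gap is that of a single read.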

How the results depend on the processing

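Between KO and WT, 53 genes were called on the control diet, 1 of them a member (Efna1). The number was 17 with a pseudocount of 5, 12 without a filter, 3 with the 2 groups alone, 231 with the replicate block, 12 by edgeR, 452 by DESeq2, 25 without WT control replicate 4 and KO ezetimibe replicate 3 (a pair set with earlier results known), 424 by DESeq2 without a filter (added after seeing the data) and 3 to 126 with a library left out. The number of members was 0 with a pseudocount of 5, without a filter, with the 2 groups alone, by edgeR and without that pair, and 0 to 1 with a library left out. On ezetimibe 1 gene and 0 members were called, against 3 genes with the 2 groups alone, 6 and 1 member (Efna1, adjusted p 0.0437) with the replicate block, 78 and 1 by DESeq2, 68 and 1 by DESeq2 without a filter, and 1 and 0 with each library left out. For ezetimibe in WT, 31 genes became 54 with the replicate block, 93 by DESeq2, 91 by DESeq2 without a filter and 17 to 34 with a library left out, with 0 to 1 members. For ezetimibe in KO, 104 genes became 54 without a filter, 14 with the 2 groups alone, 1915 with the replicate block, 1155 by DESeq2, 12 without that pair, 1128 by DESeq2 without a filter and 5 to 456 with a library left out. There 0 members became 2 with the replicate block (Efna1 and Efnb1), 2 by DESeq2, 1 by DESeq2 without a filter and 0 to 1 with a library left out. The interaction had 0 genes called, 5 by DESeq2, 3 by DESeq2 without a filter and 0 to 1 with a library left out, with 0 members. The cause of these moves was not tested. Of 21 pairs of same-numbered libraries, 12 had correlated deviations over 0.1 (range -0.24 to 0.33, other pairs -0.41 to 0.43). The labels give a replicate number without saying what it stands for. The 2 ranges overlap, so whether same-numbered libraries are paired was not settled.

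Efna1 kept a positive fold change in all 17 alternatives on the control diet (0.56 to 0.75) and all 18 on ezetimibe (0.57 to 0.67). Its adjusted p, by the test of each alternative, was under 0.05 in 6 of the 17 and 3 of the 18. Outside the interaction, sign changes were those of Epha2, which kept its sign in 17 of 18 for the genotype difference on ezetimibe, 17 of 18 for ezetimibe in WT and 12 of 17 for ezetimibe in KO, and of Efnb2, Ephb2 and Ephb3, each in 16 of 17 for ezetimibe in KO. None of these values was called. TMM scaling moved the median of all genes by at most 0.015. Efna2 and Ephb3 are limited by reads.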
